A study of Mus musculus with 9 samples.

Results

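The genes described here are 10 negative regulators of mitogen-activated protein (MAP) kinase signalling: the dual-specificity phosphatases Dusp1, Dusp2, Dusp4, Dusp5, Dusp6, Dusp10 and Dusp16, and the Sprouty family members Spry1, Spry2 and Spred1. They were chosen by symbol from 54532 genes in the table, with earlier results of these data known. All 10 were among the 16123 genes that entered the tests, whose mean was 0.2 FPKM or more. The cells were BV2, a mouse microglial line immortalized in culture, and their RNA was sequenced in 3 libraries for each of 3 groups. The control group was kept in complete medium with 10% serum. The OGD group, for oxygen-glucose deprivation, was kept in low-glucose medium with 4% serum at 4% oxygen. The OGD + A-485 group received in addition A-485, an inhibitor of the histone acetyltransferase P300, at 50 μM for 24 h, a dose and time stated for earlier experiments and assumed for the sequenced cells. In the values that follow, "with A-485" stands for this group. Oxygen, glucose and serum changed together between control and OGD, so that their parts cannot be told apart, and A-485 was not given to cells outside OGD in these libraries.

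Dual-specificity phosphatases remove phosphate from both the threonine and the tyrosine of the activation loop of a MAP kinase and thereby switch it off. Many of their genes are themselves transcribed in response to the kinases, which makes them a negative feedback loop. Sprouty and Spred proteins act further upstream and dampen the passage of signal from receptor tyrosine kinases through Ras and Raf to ERK. In microglia and macrophages, the kinases they restrain, ERK, p38 and JNK, carry inflammatory signals to cytokine genes.

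Promoters were available from RefSeq (GRCm38.p6) for 9 of the 10 genes, all but Dusp4, as 250 bases before to 50 bases after the start that RefSeq gives, which lay 47 bases inside the start in the deposited table for Dusp1, 36 for Dusp5 and 0 for Spry2. For Dusp10 it lay 21079 bases inside that start and for Spred1 at -303 bases, which is upstream of it, so that their windows are not at the start the table gives. The promoters of Dusp1, Dusp5 and Spry2 are printed because these were the genes of the group called higher in OGD, a choice made after the values were seen. Capitals mark matches to the motifs searched, on both strands: the cyclic AMP response element TGACGTCA, the AP-1 site TGANTCA, the core ACGTG of the hypoxia response element, and the CArG box, the site of serum response factor. The CArG box was added after the promoters had been seen. Each sequence reads 5′ to 3′ along the gene, at chr17:26508423-26508722 on the minus strand for Dusp1, chr19:53528895-53529194 on the plus strand for Dusp5 and chr14:105896770-105897069 on the minus strand for Spry2.
Dusp1: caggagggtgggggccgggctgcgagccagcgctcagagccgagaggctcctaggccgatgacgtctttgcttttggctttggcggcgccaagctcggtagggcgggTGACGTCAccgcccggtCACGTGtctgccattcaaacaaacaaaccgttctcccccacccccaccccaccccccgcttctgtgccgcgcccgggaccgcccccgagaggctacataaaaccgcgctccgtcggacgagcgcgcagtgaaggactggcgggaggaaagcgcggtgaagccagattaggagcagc
Dusp5: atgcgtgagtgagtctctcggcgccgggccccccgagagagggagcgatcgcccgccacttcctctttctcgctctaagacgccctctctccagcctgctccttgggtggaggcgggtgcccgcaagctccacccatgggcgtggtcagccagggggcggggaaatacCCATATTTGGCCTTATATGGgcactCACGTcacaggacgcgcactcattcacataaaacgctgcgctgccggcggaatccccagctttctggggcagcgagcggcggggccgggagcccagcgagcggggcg
Spry2: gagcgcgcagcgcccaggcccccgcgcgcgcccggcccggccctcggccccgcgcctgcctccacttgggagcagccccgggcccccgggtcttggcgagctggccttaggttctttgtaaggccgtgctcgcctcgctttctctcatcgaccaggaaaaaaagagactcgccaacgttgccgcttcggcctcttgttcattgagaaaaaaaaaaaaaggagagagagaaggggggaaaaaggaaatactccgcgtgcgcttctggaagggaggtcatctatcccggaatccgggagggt

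The Dusp1 promoter held the full TGACGTCA at 143 to 136 bases before the start, and CACGTG, which contains ACGTG on both strands, at 126 to 121 bases before it. In the Dusp5 promoter, a pair of adjoining CArG boxes lay at 82 to 73 and 72 to 63 bases before the start, and ACGTG on the minus strand at 57 to 53 bases. No match was found in the Spry2 window. TGACGTCA stood in 1 of the 9 promoters against 1.79% of 32851 promoters of the same length, a CArG box in 1 against 1.63%, ACGTG in 4 against 19.6% and TGANTCA in 0 against 7.81%. The other 2 with ACGTG were Dusp2 and Spred1. No match overlapped one to another motif. These letters are a description of the sequence, and binding was not measured. G and C made up 57.3% (Dusp6) to 72.3% (Spred1) of the bases in the 9 promoters, against 53.8% over all promoters. The part of this base content in the motif shares was not tested.

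All 9 libraries held between 12593250 and 16091038 reads on genes, recovered from the deposited FPKM, and 1 read in a gene of 1 kb was worth 0.0618 to 0.0786 FPKM. Of 14 microglia and macrophage markers, 11 had a mean of at least 1 FPKM over the 9 libraries, whereas the means of C1qa, P2ry12 and Sall1 were under 0.2 FPKM. With A-485, C1qa averaged 0.52 and P2ry12 0.24 FPKM, and C1qa was at 0 in all control and OGD libraries. Summed over the list, the 14 markers reached 447 to 465 FPKM in control, 582 to 601 under OGD and 1068 to 1089 with A-485. None of 10 markers of other brain cell types reached a mean of 1 FPKM, and Aqp4 and Cldn5 had 0 reads in all libraries. Summed likewise, they gave 2.11 to 2.78 FPKM in control, 3.38 to 3.86 under OGD and 2.21 to 2.63 with A-485. The part of these shifts in the values of the phosphatases and Sprouty genes was not tested. In bulk RNA, more cells with a transcript and more transcript per cell cannot be told apart.

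After OGD, 3 of the 10 genes rose, Dusp1, Dusp5 and Spry2, and 0 fell. When A-485 was present during OGD, 5 were lower than in OGD alone, Dusp1, Dusp4, Dusp5, Spry1 and Spred1, and 0 were higher. A call required, in limma, an unadjusted p under 0.01 together with an absolute log2 fold change above 0.5, so that a small but tight difference was not called. Among all genes tested, 11.2% were called higher and 9.81% lower in OGD against control, and 12.2% higher and 13.4% lower in OGD + A-485 against OGD. With a Benjamini-Hochberg adjusted p under 0.05 in place of both thresholds, 6 of the 10 genes passed after OGD and 8 with A-485 against OGD, beside 45.3% and 49.8% of all genes. The median log2 change of the 10 genes was 0.39 after OGD, against 0.01 over all genes tested, and -0.51 with A-485, against 0.01. Because the 10 genes were chosen with earlier results of these data known, these counts and medians are a description only. Both comparisons use the same OGD libraries, so that a high OGD value enters the first as a rise and the second as a fall.

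**Figure D1:**
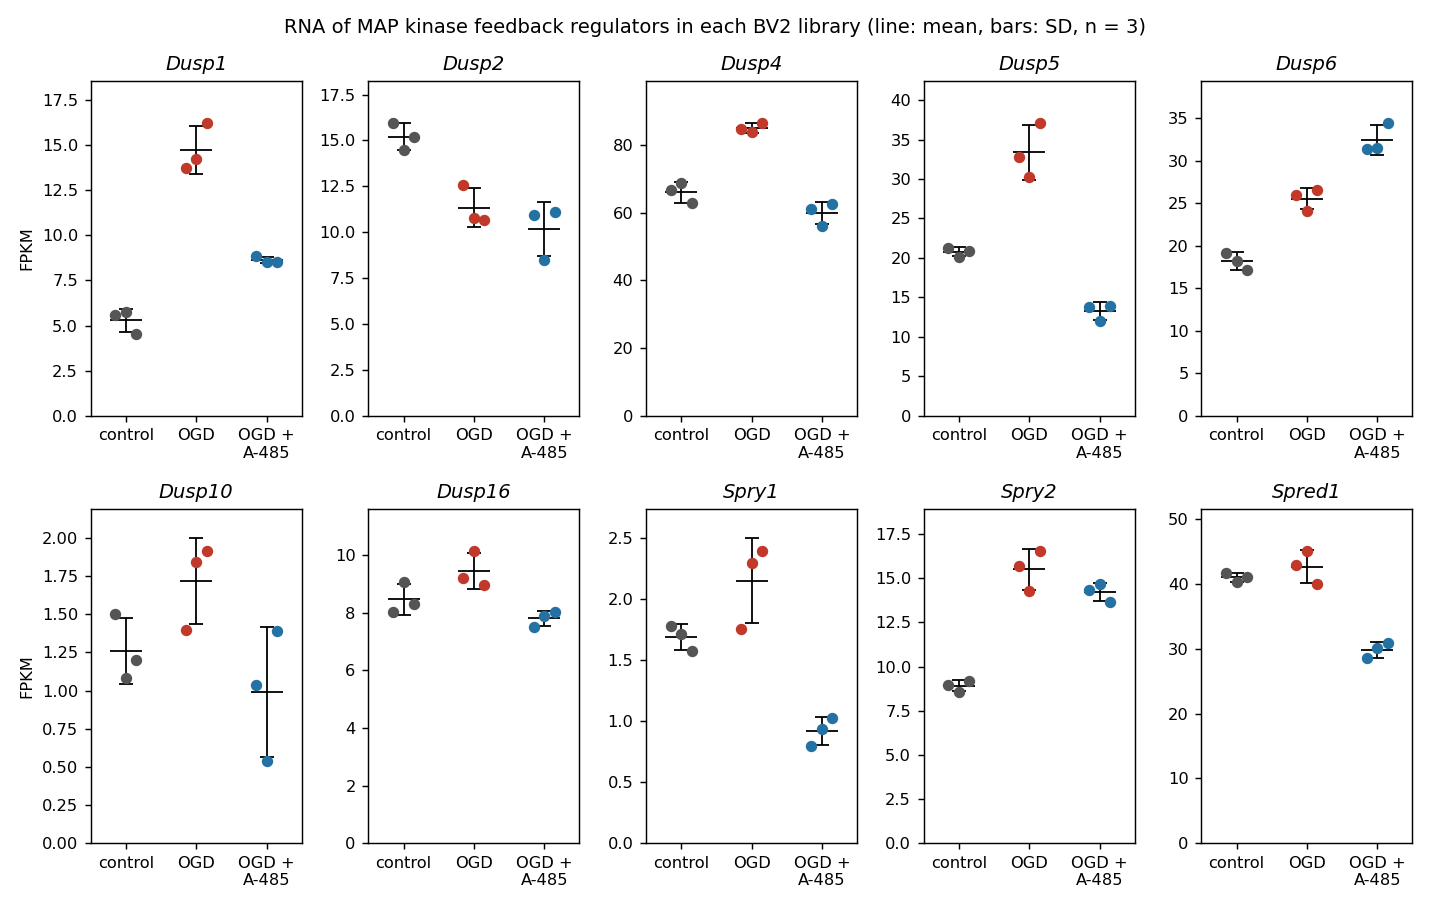
FPKM of each of the 10 genes (vertical axes, from 0, with a scale of their own) in the 9 libraries (points), with the mean and SD of each group of 3. For Dusp1, Dusp4 and Dusp5, all OGD libraries were above all other libraries. Dusp6 was highest in OGD + A-485, and Spry2 was higher than control in both deprived groups.

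Dusp1, the nuclear phosphatase best known for switching off p38 and JNK in macrophages, had the largest rise of the 10. It is encoded at chr17:26505590-26508519 on the minus strand. Its level was 5.61, 5.72 and 4.56 FPKM in the control libraries, 13.7, 14.2 and 16.2 in OGD, and 8.83, 8.54 and 8.51 with A-485. The 3 groups were separate, with every OGD + A-485 library between the control and the OGD libraries. The group means were 5.30 ± 0.643 in control, 14.7 ± 1.33 in OGD and 8.63 ± 0.175 FPKM with A-485 (SD, n = 3 each). The log2 fold change was 1.46 after OGD (SE 0.09, limma adjusted p = 5.71e-06), which is 2.78 times the control mean. With A-485 the gene fell by 0.76 from OGD (limma adjusted p = 0.000169) and was 0.70 above control (limma adjusted p = 0.000209).

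Dusp5, a nuclear phosphatase selective for ERK, fell below its control level with A-485. It lies at chr19:53529109-53542431 on the plus strand. The control libraries held 21.3, 20.1 and 20.9 FPKM, the OGD libraries 32.8, 30.3 and 37.1, and the OGD + A-485 libraries 13.8, 12.01 and 13.9. Each group was separate, and the OGD + A-485 libraries were below control as well as below OGD. The means were 20.8 ± 0.584, 33.4 ± 3.46 and 13.3 ± 1.09 FPKM (SD, n = 3 each). Dusp5 rose by 0.68 on the log2 scale after OGD (SE 0.08, limma adjusted p = 0.000179) and fell by 1.32 with A-485 (SE 0.08, limma adjusted p = 2.73e-06). It stood 0.65 below control in OGD + A-485 on that scale (log2 fold change -0.65, limma adjusted p = 0.000141). The 50 nearest tested genes on the chromosome had a median change of -0.46 in that last comparison, and with it subtracted the change was -0.19 and was not called. Against OGD their median change was -0.38, and Dusp5 with it subtracted was at -0.95 and still called.

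Dusp6, the cytoplasmic phosphatase selective for ERK, had its highest values with A-485. It lies at chr10:99263231-99267489 on the plus strand. Its values were 19.2, 18.2 and 17.2 FPKM in control, 26.0, 24.2 and 26.6 in OGD, and 31.4, 31.5 and 34.5 with A-485, so that the 3 groups were separate in ascending order. The means were 18.2 ± 1.03, 25.6 ± 1.26 and 32.5 ± 1.76 FPKM (SD, n = 3 each). The difference of 0.49 between OGD and control on the log2 scale (limma adjusted p = 0.000183) was just short of the size needed for a call, and it was 0.53 and called under quantile normalization, without control replicate 1 and without OGD replicate 2. A-485 libraries were 0.34 above OGD (limma adjusted p = 0.00127), which was not called by size, and 0.83 above control, which was (limma adjusted p = 3.71e-06). The ratio of Dusp5 to Dusp6, taken after the values were seen and free of library scaling, was 1.11, 1.11 and 1.22 in control, 1.26, 1.25 and 1.40 in OGD and 0.441, 0.381 and 0.404 with A-485. In each OGD + A-485 library Dusp6 was thus the more abundant of the pair per length, and in each of the other libraries Dusp5 was.

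Dusp4, a nuclear phosphatase of ERK, JNK and p38, was the most abundant phosphatase of the group in all 3 groups of libraries. It lies at chr8:34807297-34819894 on the plus strand. Control held 66.6, 68.9 and 62.8 FPKM, OGD 84.8, 83.8 and 86.6, and OGD + A-485 61.0, 56.1 and 62.6. OGD libraries were above all others, and those with A-485 were below the control libraries, which they did not overlap. The difference between OGD and control of 0.36 on the log2 scale was not called by size (limma adjusted p = 0.000385), and its 50 neighbours had a median change of 0.28 in the same comparison. With A-485 it fell by 0.51 from OGD (SE 0.05, limma adjusted p = 4.42e-05), just past the size threshold, and the change was -0.49 and not called without OGD replicate 3, -0.46 without OGD + A-485 replicate 2 and -0.36 with the neighbours' median subtracted.

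Dusp2, a nuclear phosphatase found mainly in immune cells, was highest in control. Its gene is at chr2:127336159-127338376 on the plus strand. The values were 16.0, 14.5 and 15.2 FPKM in control, 12.6, 10.8 and 10.7 in OGD, and 10.9, 8.50 and 11.1 with A-485. All deprived libraries were below all control libraries, and the OGD and OGD + A-485 libraries overlapped. The log2 fold change was -0.42 after OGD (limma adjusted p = 0.0112), which was not called by size, and -0.16 with A-485 against OGD (95% confidence interval -0.41 to 0.09). In OGD + A-485 against control it was -0.58 and called (limma adjusted p = 0.00144), and not called at -0.46 without OGD + A-485 replicate 2 and at -0.43 with the neighbours' median subtracted. The ratio of Dusp1 to Dusp2, chosen after the values were seen, was 0.349 ± 0.0480 in control, 1.31 ± 0.214 in OGD and 0.859 ± 0.128 with A-485 (SD, n = 3 each).

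Dusp10 and Dusp16 are phosphatases that prefer p38 and JNK, and neither was called in any of the 3 comparisons. Dusp10 (chr1:184013302-184075636, plus strand) was measured by 26 to 82 reads per library, at 1.501, 1.08 and 1.20 FPKM in control, 1.39, 1.84 and 1.92 in OGD and 1.03, 0.541 and 1.39 with A-485. OGD and control overlapped (log2 difference 0.42, 95% confidence interval -0.26 to 1.09). The difference between OGD + A-485 and OGD of -0.81 had a limma adjusted p of 0.0475, was not called, and became -0.91 and called in limma-voom on the recovered reads and -1.08 and called without OGD + A-485 replicate 3, but was -0.47 and not called without OGD + A-485 replicate 2. Dusp10 overlaps 1700056E22Rik, which lies on the other strand with a mean of 0.120 FPKM. Dusp16 (chr6:134715468-134792625, minus strand) was at 8.02, 9.07 and 8.29 FPKM in control, 9.22, 10.2 and 8.95 in OGD and 7.50, 7.87 and 8.03 with A-485. Its OGD + A-485 libraries were all below OGD, by -0.27 on the log2 scale (limma adjusted p = 0.00868), and overlapped control. Against control the change of -0.11 was not called, and it was -0.51 and called once the median change of the 50 neighbours was subtracted. Dusp16 overlaps Gm36328, an antisense gene with a mean of 0.658 FPKM, and whether the reads were counted by strand is not given in the sources used here.

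Spry2, one of the inducible Sprouty inhibitors of receptor tyrosine kinase signalling, rose after OGD and stayed above control with A-485. The gene is at chr14:105891947-105896819 on the minus strand. Its values were 8.93, 8.58 and 9.20 FPKM in control, 15.7, 14.2 and 16.6 in OGD and 14.3, 14.7 and 13.7 with A-485. The deprived groups overlapped and both were above every control library. Spry2 rose by 0.79 on the log2 scale after OGD (SE 0.06, limma adjusted p = 1.47e-05). The difference of -0.12 between OGD + A-485 and OGD was not called (95% confidence interval -0.26 to 0.02), and it was -0.45 and not called with its neighbours' median change of 0.33 subtracted. Against control, OGD + A-485 was 0.67 higher (limma adjusted p = 1.76e-05), and 0.24 and not called once the median change of its 50 neighbours was subtracted.

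Spry1, its relative and also a Sprouty inhibitor, was among the least abundant of the 10 genes, with Dusp10. It is encoded at chr3:37639947-37644598 on the plus strand and was measured by 34 to 98 reads. It overlaps Gm42922 on the other strand, with a mean of 0.458 FPKM. Control held 1.78, 1.71 and 1.57 FPKM, OGD 1.76, 2.30 and 2.40, and OGD + A-485 0.801, 0.937 and 1.03. OGD + A-485 libraries were below all others, whereas OGD and control overlapped (log2 difference 0.32, limma adjusted p = 0.115). With A-485 the gene fell by 1.13 from OGD (SE 0.15, limma adjusted p = 0.000246) while its 50 neighbours had a median change of 0.41, and with that subtracted the change was -1.55, past that of Dusp5. Spry1 was also 0.81 lower than control (log2 fold change -0.81, limma adjusted p = 0.00143), a change of -0.49 and not called with a pseudocount of 1. The ratio of Spry2 to Spry1, chosen after the values were seen, was 5.29 ± 0.485 in control, 7.34 ± 1.41 in OGD and 15.6 ± 2.27 with A-485 (SD, n = 3 each).

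Spred1, a membrane-bound inhibitor of Ras signalling, was the most abundant of the 3 upstream inhibitors. It is at chr2:117121374-117182279 on the plus strand. The values were 41.7, 40.3 and 41.0 FPKM in control, 42.8, 45.1 and 39.9 in OGD and 28.5, 30.0 and 30.8 with A-485. OGD and control overlapped (log2 difference 0.05, 95% confidence interval -0.06 to 0.17), and all libraries with A-485 were below all of the rest. Spred1 fell by 0.52 from OGD with A-485 (SE 0.05, limma adjusted p = 3.95e-05), again just past the size threshold, with -0.47 and no call without OGD replicate 2 and -0.48 without OGD + A-485 replicate 1. Against control the log2 change of -0.46 was not called by size (limma adjusted p = 5.42e-05), and it was called at -0.58 when scaled to library totals and at -0.54 under quantile normalization.

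Against control, OGD + A-485 libraries had 3 of the 10 genes higher, Dusp1, Dusp6 and Spry2, and 3 lower, Dusp2, Dusp5 and Spry1. Among all genes tested, 17.0% were called higher and 16.6% lower in this comparison. With an adjusted p under 0.05, 8 of the 10 genes passed, against 56.6% of all genes. This comparison shares its libraries with both others.

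**Figure D2:**
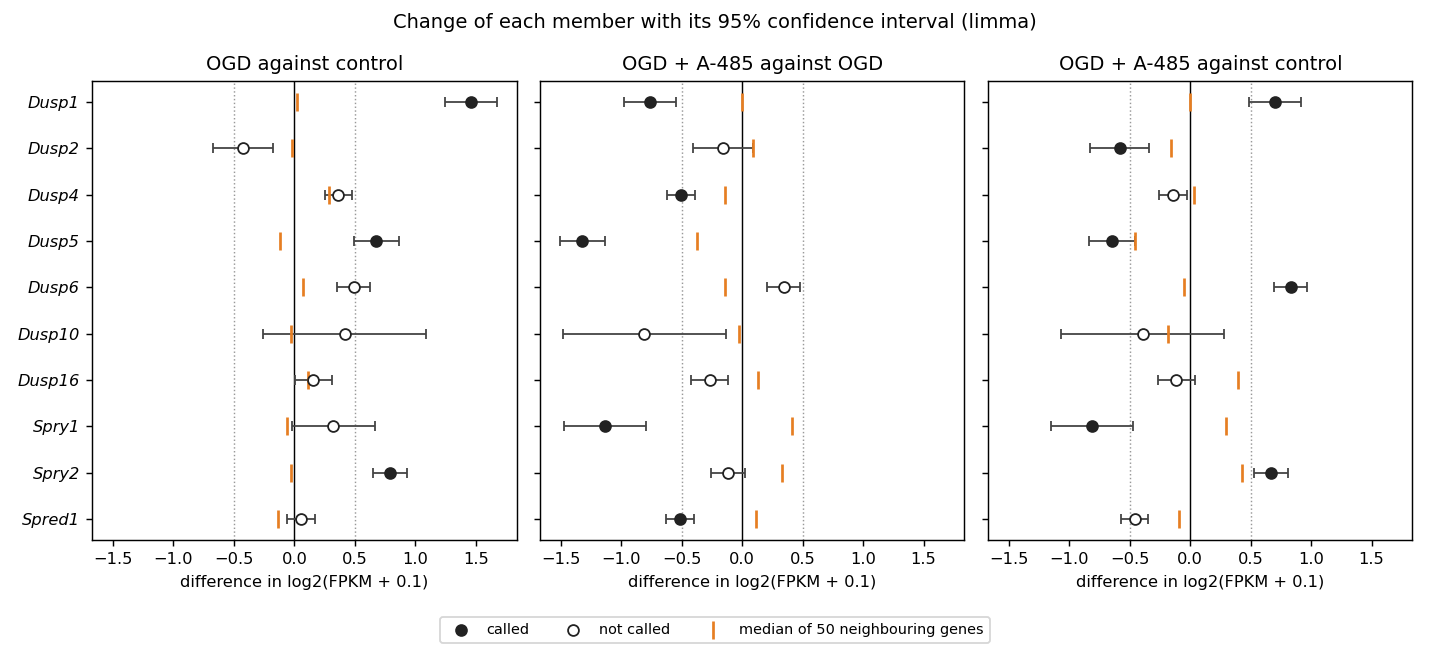
Difference in log2(FPKM + 0.1) of each gene with its 95% confidence interval in the 3 comparisons (limma), filled where called, with dotted lines at the size threshold and orange ticks at the median change of the 50 nearest tested genes on the chromosome. In OGD + A-485 against OGD, Dusp5 and Spry1 were furthest to the left before any subtraction of that median, and Dusp6 alone lay to the right of 0.

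By level per length, the order in control was Dusp4, Spred1, Dusp5, Dusp6, Dusp2, Spry2, Dusp16, Dusp1, Spry1 and Dusp10, and neighbours in it overlapped only at Spry2 and Dusp16. Under OGD, Dusp1 moved up to beside Spry2, and these overlapped, as did Spry1 and Dusp10. With A-485, Dusp6 was second after Dusp4, and the overlapping neighbours were Spry2 with Dusp5, Dusp2 with Dusp1, and Dusp10 with Spry1. The 7 phosphatases summed to 135 ± 4.54 FPKM in control, 181 ± 6.42 in OGD and 133 ± 7.55 with A-485 (SD, n = 3 each). Dusp4 made up 48.9%, 47.0% and 45.0% of that sum, whereas Dusp6 made up 13.4%, 14.1% and 24.4%, and Dusp5 15.4%, 18.4% and 9.94%. Spry1, Spry2 and Spred1 together summed to 51.6 ± 0.917, 60.3 ± 1.37 and 44.9 ± 1.15 FPKM.

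**Figure D3:**
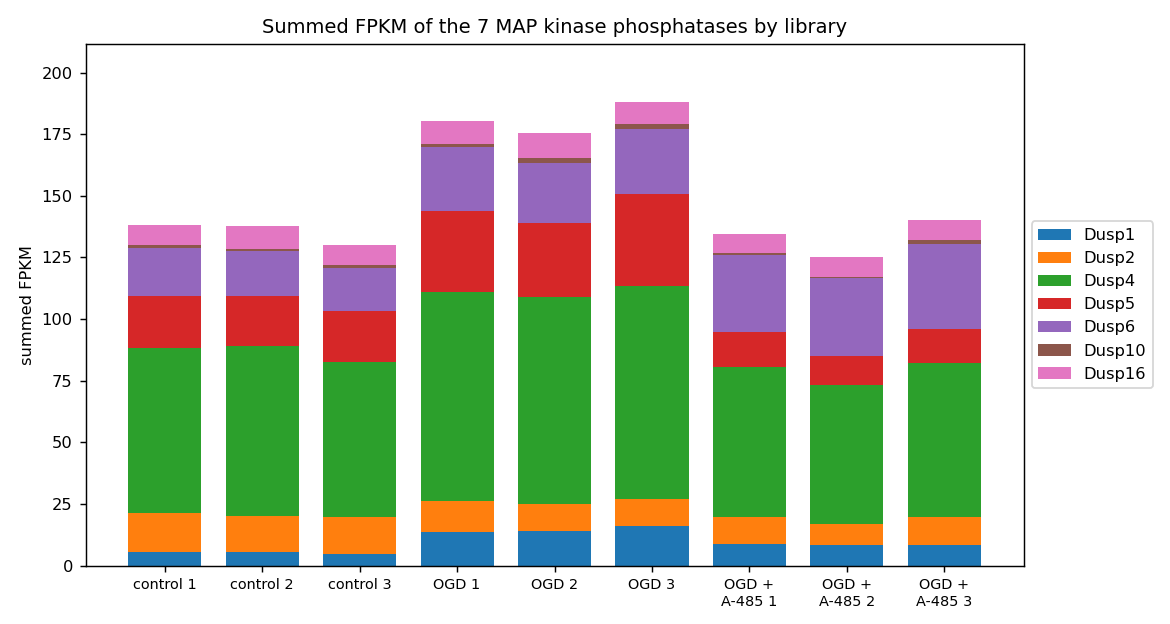
Summed FPKM of the 7 phosphatases in each library, stacked by gene. The 3 OGD libraries were the tallest, at 175 to 188 FPKM, and in the OGD + A-485 libraries the Dusp6 share was larger and the Dusp5 share smaller than in the others.

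Over the 9 libraries, correlations between pairs of the 10 genes in log2(FPKM + 0.1) ran from -0.84 for Dusp2 and Dusp6 to 0.95 for Dusp4 and Dusp5. These are descriptions over 3 groups of libraries that share treatments. Among 10170 other genes averaging 1 FPKM or more and carrying an annotated symbol, rather than a Gm, Rik or clone name, those most like each member were Arhgap25 for Dusp1 (r = 0.993), Lonp1 for Dusp5 (r = 0.997), Hist1h4h for Dusp6 (r = 0.995) and Iqcc for Dusp4 (r = 0.995). Havcr2 was most like Spry2 (r = 0.996), Pip5k1b most like Spry1 (r = 0.989), Eif2s2 most like Spred1 (r = 0.998) and Mis18a most like Dusp2 (r = 0.982). The weakest matches were Rnf141 for Dusp16 (r = 0.941) and Rcor2 for Dusp10 (r = 0.898). For most members many genes had r above 0.95, so that the gene named was the highest of many. Such genes numbered 520 for Dusp6, 318 for Spred1, 228 for Dusp5, 181 for Spry2 and 173 for Dusp1. There were 162 for Dusp4, 146 for Spry1, 16 for Dusp2 and 0 for Dusp10 and Dusp16.

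Of the other MAP kinase phosphatases and Sprouty or Spred genes, 5 of 7 were tested, and 2 rose after OGD, 0 fell, and with A-485 4 fell and 0 rose. Beside each list in this paragraph stand the shares called among all genes tested. They were 11.2% higher and 9.81% lower after OGD, and 12.2% higher and 13.4% lower with A-485. Dusp8, a phosphatase of JNK and p38, was at 1.02 FPKM in control, 3.21 in OGD and 0.789 with A-485, a rise of 1.58 and a fall with a log2 change of -1.92 (limma adjusted p = 9.59e-05 and 2.34e-05). Spry4, like Spry1 a Sprouty inhibitor, fell from 4.83 FPKM in OGD to 0.711 with A-485 (log2 change -2.61, limma adjusted p = 4.84e-07), and Spred3 rose after OGD (log2 change 0.93, limma adjusted p = 0.000141). Dusp9 had 0 reads in every library. Of 14 atypical dual-specificity phosphatases, 10 were tested, and 1 rose and 1 fell after OGD, while 1 rose and 2 fell with A-485. Dusp14 rose from 9.31 to 16.4 FPKM after OGD and fell to 4.13 with A-485 (log2 changes 0.81 and -1.97, limma adjusted p = 0.000855 and 3.56e-06), whereas Dusp12 fell after OGD (-0.72, limma adjusted p = 0.000624). With a pseudocount of 1, 0 atypical phosphatases were called lower after OGD. With A-485, Dusp23 rose (1.37, limma adjusted p = 0.00371) and Dusp18 fell (-0.84, limma adjusted p = 6.70e-06). Of 6 other phosphatases of MAP kinases, 5 were tested and 0 were called after OGD, though 1 was called higher in a fit of only the 2 groups compared and in limma-voom. With A-485, 1 rose, Ptpn7 (log2 change 1.03, limma adjusted p = 6.45e-06), and 2 fell, among them Ppm1b (-0.80, limma adjusted p = 1.69e-06).

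Of the kinase cascades that these phosphatases restrain, all 21 genes of the ERK cascade were tested, and 2 rose and 2 fell after OGD, while 3 rose and 1 fell with A-485, a count of falls that was 3 under library-total scaling and under quantile normalization and 0 with a pseudocount of 1. After OGD, Mapk3, which encodes ERK1, rose (log2 change 0.75, limma adjusted p = 2.73e-05) and so did the adaptor Gab2 (0.78, limma adjusted p = 2.66e-05), whereas Hras fell (-0.75, limma adjusted p = 0.000713). With A-485, Hras rose (0.84, limma adjusted p = 0.000313), as did the adaptor Shc1 (0.88, limma adjusted p = 7.27e-07), and Sos1, a Ras activator, fell (-0.55, limma adjusted p = 0.000306). Of 21 genes of the p38 and JNK cascades, 18 were tested, and 1 rose and 3 fell after OGD, while 2 rose and 3 fell with A-485. For both cascade lists, the shares among all genes tested were 11.2% higher and 9.81% lower after OGD. With A-485 they were 12.2% higher and 13.4% lower. Map2k6, a kinase of p38, rose after OGD (1.10, limma adjusted p = 0.000207) and fell with A-485 (-1.57, limma adjusted p = 1.91e-05), and Map2k3 fell after OGD (-0.88, limma adjusted p = 2.67e-05). Mapk11, which encodes p38 beta, fell in both comparisons (-0.76 and -2.07, limma adjusted p = 0.0147 and 4.38e-05), and Mapk14 (0.80, limma adjusted p = 2.35e-06) and Map3k11 (0.66, limma adjusted p = 0.000333) rose with A-485.

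Of 14 ERK output genes, 12 were tested, and 5 rose and 1 fell after OGD, while 1 rose and 7 fell with A-485. Among all genes tested, 11.2% were higher and 9.81% lower after OGD, and 12.2% higher and 13.4% lower with A-485. The median log2 change of the list was 0.31 after OGD and -0.77 with A-485, against 0.01 over all genes tested in each. This list too was chosen with earlier results of these data known, so that its counts and medians are a description only. Ier3, an early response gene, rose from 232 to 706 FPKM and was at 390 with A-485 (log2 change 1.61 after OGD, limma adjusted p = 6.31e-07). Myc also rose (1.61, limma adjusted p = 4.06e-05), while Fos, a component of AP-1, fell after OGD (-0.96, limma adjusted p = 0.00218) and rose with A-485 (1.40, limma adjusted p = 0.000205). Epha2 (5.999 to 0.313 FPKM, -3.91, limma adjusted p = 4.50e-07) and Phlda1 (-2.16, limma adjusted p = 9.00e-07) fell most with A-485 in that list. Egr1, the textbook early response gene of ERK, had 0 or 1 reads per library. The list carries its name from what is known of the genes. These libraries hold RNA only, without phosphorylation of the kinases, and the part of ERK in these changes was not tested.

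**Figure D4:**
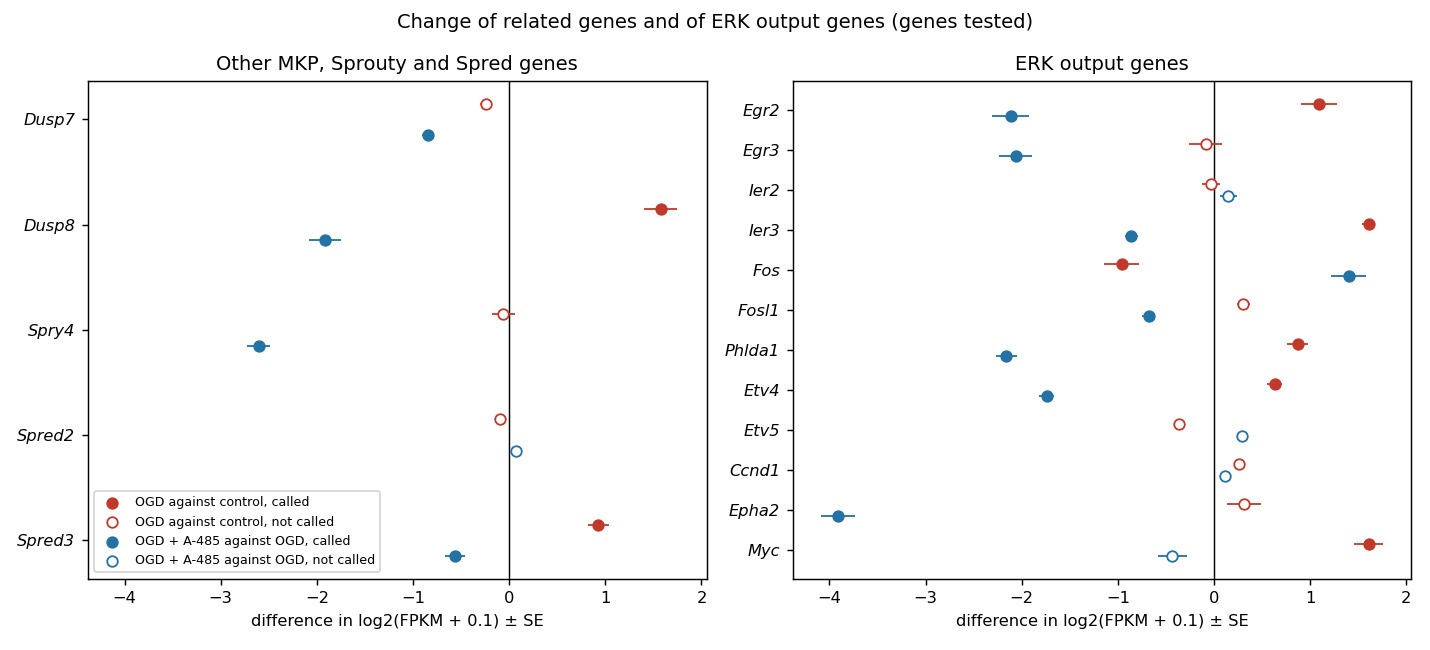
Difference in log2(FPKM + 0.1) with its SE for the tested genes of the other MAP kinase phosphatase, Sprouty and Spred genes (left) and of the ERK output genes (right), for OGD against control (red) and OGD + A-485 against OGD (blue), filled where called. Spry4 and Epha2 were the genes furthest to the left in blue.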

How the data were processed

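RNA of 9 BV2 libraries was sequenced, and groups and replicate numbers were taken from the sample titles. The authors counted reads on genes with featureCounts and deposited FPKM for 54532 genes with lengths and coordinates (GRCm38, mm10, per the processing notes). FPKM times length gave whole reads (tolerance 0.001) at 100% of non-zero entries of each library, using one divisor per library. That divisor matched a size factor by median of ratios, multiplied by the geometric mean of the totals, so that the deposited FPKM already carry that scaling. The count test of the authors was left out here. Tests were run on the deposited FPKM, with limma-voom on the recovered reads as an alternative.

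Genes averaging 0.2 FPKM or more (16123) were fitted as log2(FPKM + 0.1) with limma 3.58.1 (R 4.3.3), using group means and a trended prior over all 9 libraries. Calls used the study's thresholds, an absolute log2 fold change above 0.5 at an unadjusted p under 0.01, with p-values adjusted by Benjamini-Hochberg printed next to them. All members are named, and from each list the 2 genes that rose and the 2 that fell most among those called and averaging 1 FPKM or more; 1 gene that this rule names is not reported here. Egr1, Dusp9 and the ratios between members were named after their values were seen. The members and lists were chosen with earlier results of these data known. The p-values set group differences against the spread between these libraries, as moderated by the trended prior. The labels do not say whether libraries are separate cultures, so that this spread may be technical. Alternatives were a pseudocount of 1 or 0.01, a filter at 1 FPKM or none, library-total and quantile scaling, only the groups compared, a replicate block, no trend, limma-voom on recovered reads, adjusted p under 0.05, subtraction of the median of the 50 nearest genes, and each library left out. The fit was also run on simulated reads with the same dispersion set for every gene. That run cannot show how the fit performs at the spread of these libraries. Python 3.11.15 with numpy 2.4.6, pandas 2.3.3 and matplotlib 3.10.9 was used for the other steps.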

Additional observations from a re-analysis of the deposited data

How the results depend on the processing

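No result for the 10 genes reversed under any alternative run. Of 630 log2 changes of members recomputed, 604 stayed on their side of the call, 16 passed it newly and 10 no longer passed it, and the ones that moved without a change of threshold are given with the genes. With an adjusted p under 0.05 in place of both thresholds, 5 members were higher and 1 lower after OGD, 1 was higher and 7 lower with A-485 against OGD, and 3 were higher and 5 lower with A-485 against control. Of the counts for the pathway lists, 709 stayed within 1.5 times and 47 moved further, of which only some are given here. ERK cascade genes lower with A-485 against OGD moved from 1 to 3 under library-total scaling and under quantile normalization, and to 0 with a pseudocount of 1, with the neighbours' median subtracted or without OGD replicate 2. Leaving out 1 library at a time gave 3 to 4 members higher and 0 lower after OGD, 0 higher and 4 to 6 lower with A-485 against OGD, and 3 higher and 2 to 3 lower with A-485 against control. Under quantile normalization the share of Dusp4 in the phosphatase sum of OGD + A-485 was 43.5% (45.0% as deposited), and the cause was not tested. With the replicate block the counts were 3 higher and 0 lower after OGD, 0 and 5 with A-485 against OGD, and 3 and 3 against control, and 1740 and 1548 genes in all were called higher and lower after OGD. Libraries of the same number did not deviate together (mean r = -0.002 over 9 pairs, range -0.046 to 0.039). Pairs of different numbers had a mean r of 0.001. No pairing by number was thus seen, but with 3 libraries per group a weak one could be missed. Dusp10 and Spry1, with as few as 26 and 34 reads in a library, were measured least precisely.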
